A study of Danio rerio with 6 samples.

Results

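The 10 genes described here encode keratins of the zebrafish skin and of simple epithelia: krt4, krt5, krt8, krt17, krt18a.1, krt91, krt92, krt94, cyt1 and cyt1l. They were chosen by gene symbol, with earlier results of these data known. Of the 21837 named rows of the deposited expression table, 10 are theirs, 1 row for each. The libraries came from GFP+ cells of 28 hpf (hours post fertilization) Tg(fli1a:eGFP) embryos, in which regulatory sequence of the endothelial gene fli1a drives the fluorescent protein. Embryos had received a control morpholino (control MO, 3 libraries) or a morpholino against clec16a (clec16a MO, 3 libraries). Morpholinos are synthetic antisense molecules that bind an RNA and block its translation or its splicing. All 6 libraries carry the transgene, and the treatment label reads no culture. The labels do not give the sort, whether animals were pooled, or whether replicates came from separate clutches. The p-values therefore measure the spread between these libraries, which may be technical. The grouping rests on the genotype label, since the titles of the libraries do not name a morpholino. The 3 libraries labelled clec16a MO had lower levels of endothelial markers, fli1a among them, and higher levels of red blood cell and myeloid markers than the 3 labelled control MO, with values given after the keratins. Whether the labels or the make-up of the cells bear on the differences was not tested, and all group names are as labelled. The series asks how clec16a acts in blood stem and progenitor cells.

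Keratins are the intermediate filament proteins of epithelia. A filament is built from a type I and a type II keratin in equal parts, so each epithelial cell type makes at least one of each. At this stage the skin of the zebrafish embryo has an outer layer, the periderm, which derives from the enveloping layer, and a basal layer on the basement membrane. krt4, krt5 and krt8 encode type II keratins, and the other members encode type I keratins. As known from mammals, KRT8 and KRT18 form the filament of simple epithelia and are not restricted to the epidermis. Neighbouring positions in the genome were read from RefSeq's GRCz12tu gene table, by name alone. There krt92, cyt1l, cyt1, krt17 and krt91 follow each other with 0 coding genes between neighbours, as do krt5, krt8 and krt18a.1. krt4 is separated from krt18b, a type I keratin gene that is no member, by 1 coding gene.

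All 10 keratin genes were lower in the clec16a MO libraries. Values are FPKM, fragment numbers corrected for transcript length and for the size of the library, so levels of different genes can be set side by side. Summed over the 10 genes, the level was 3308, 3352 and 3384 FPKM under the control MO and 662, 707 and 675 FPKM under the clec16a MO. This was 0.673% ± 0.0184 (SD, n = 3) of the summed FPKM of a control library and 0.131% ± 0.0105 (SD, n = 3) of a clec16a MO library. The groups did not overlap (two-sided exact permutation test, p = 0.1, which is the smallest p for 3 against 3). The summed FPKM of all named rows overlapped between the groups, at 497851 ± 8117 and 522330 ± 23997 (SD, n = 3). In bulk samples, fewer cells of a type and less RNA per cell cannot be told apart.

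Each member was tested as log2(FPKM + 1) with limma's moderated test over 12153 genes, those that averaged 1 FPKM or more across the libraries, with Benjamini-Hochberg adjustment over all of them and a threshold of 0.05. Of the 10 members, 10 passed the filter and 10 were called lower; in the same fit 54.6% of all tested genes were called lower and 26.7% higher. In 10 of 10 members the 3 clec16a MO libraries lay below the 3 control libraries, as they did for 56.1% of tested genes. A call on the lower side with a log2 difference of -1 or less was reached by 10 of 10 members and by 41.3% of tested genes. The median log2 difference was -2.64 over the members and -0.66 over all tested genes. Of the members, 4 (krt17, krt91, krt92 and krt94) had a mean below 1 FPKM under the clec16a MO and passed the filter through the control libraries, so they could differ in the lower direction only.

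**Figure D1:**
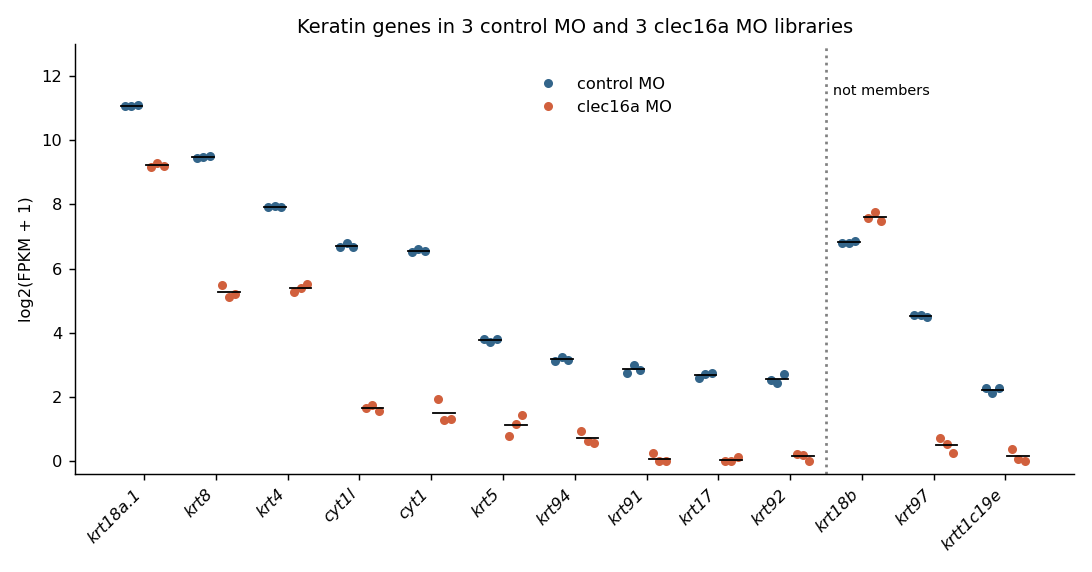
Level of each keratin gene as log2(FPKM + 1), with 1 point per library and a black bar at the group mean. The 10 members, left of the dotted line, are ordered by their control level and lie lower in the clec16a MO libraries, while krt18b on the right lies higher.

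The simple-epithelium genes krt18a.1 and krt8 had the highest levels under the control MO. krt18a.1, a type I keratin gene of the KRT18 class, stood at 2135, 2150.2 and 2186 FPKM under the control MO and at 573, 626 and 589 FPKM under the clec16a MO. Its mean was 3.62-fold lower (log2 difference -1.86, SE 0.08, limma adjusted p = 7.9e-07). This was the smallest log2 difference of the 10 members, and 20.9% of tested genes had one as low or lower. krt8, the type II gene of the same class of filament, read 704, 713 and 724 FPKM under the control MO and 44.1, 33.9 and 35.6 FPKM under the clec16a MO. The krt8 mean was 18.8-fold lower (log2 difference -4.21, SE 0.11, limma adjusted p = 1.7e-07), and 1.96% of tested genes had a log2 difference as low or lower.

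The 2 genes therefore did not move in proportion. The ratio of krt8 to krt18a.1 was 0.330, 0.332 and 0.331 with the control MO and 0.0770, 0.0541 and 0.0605 in the clec16a MO libraries. A factor common to all genes of a library leaves such a ratio unchanged. Quantile normalization is no such factor, and with it the log2 differences were -4.32 for krt8 and -2.30 for krt18a.1. The control ratios lay close together and all clec16a MO ratios lay below them (exact permutation p = 0.1, the smallest possible).

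Of the keratin genes of the surface epidermis, krt4 was also lower. krt4, a type II keratin gene whose promoter is widely used to mark the outer skin layer, stood at 241, 244 and 242 FPKM under the control MO and at 38.0, 41.3 and 44.5 FPKM under the clec16a MO. The mean was 5.88-fold lower (log2 difference -2.53, SE 0.09, limma adjusted p = 4.3e-07). Its groups were far apart compared with the spread within either.

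cyt1 and cyt1l, named as type I cytokeratins of the enveloping layer, had the lowest log2 differences of the members. cyt1l read 102, 109.6 and 101 FPKM under the control MO and 2.15, 2.35 and 1.93 FPKM under the clec16a MO, which is 48.6-fold lower by the means (log2 difference -5.07, SE 0.10, limma adjusted p = 6.3e-08). cyt1 read 90.5, 97.3 and 92.6 FPKM and then 2.84, 1.45 and 1.48 FPKM, which is also 48.5-fold lower (log2 difference -5.05, SE 0.19, limma adjusted p = 5.4e-07). Of tested genes, 0.987% had a log2 difference as low as or lower than that of cyt1l. They are neighbours of similar name, and how reads common to close copies were divided is not stated, so the separate values are uncertain. Their sum went from 198 ± 7.98 to 4.07 ± 0.826 FPKM (SD, n = 3). The ratio of cyt1 to cyt1l was 0.888, 0.887 and 0.914 with the control MO and 1.32, 0.620 and 0.768 in the clec16a MO libraries, so here the groups overlapped.

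krt5, a type II keratin gene of the embryonic epidermis, had a lower level. Its mean was 12.7 ± 0.582 FPKM (SD, n = 3) under the control MO, and it stood at 0.733, 1.24 and 1.74 FPKM under the clec16a MO, 10.25-fold lower by the means (log2 difference -2.64, SE 0.18, limma adjusted p = 8.4e-06). Its clec16a MO values were more spread relative to their mean than those of krt18a.1 or krt4, and each of them was far below each control value.

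The remaining type I members were expressed at under 10 FPKM in every library. krt94 read 7.68, 8.50 and 7.88 FPKM under the control MO and 0.925, 0.552 and 0.466 FPKM under the clec16a MO (log2 difference -2.46, SE 0.14, limma adjusted p = 3.7e-06). krt91 read 5.77, 7.01 and 6.24 FPKM under the control MO, and in the clec16a MO libraries 0.186 FPKM in replicate 1 and 0 in the other two. krt17 read 5.07, 5.59 and 5.74 FPKM under the control MO, and in the clec16a MO libraries 0.0916 FPKM in replicate 3 and 0 in the other two. These genes were near or at the bottom of the scale in every clec16a MO library. krt92 likewise went from 4.73, 4.42 and 5.51 FPKM to 0.173, 0.155 and 0 FPKM. The log2 differences of krt91, krt17 and krt92 were -2.79, -2.65 and -2.41 (SE 0.13, 0.11 and 0.13; limma adjusted p = 1.4e-06, 9.0e-07 and 2.6e-06). No fold is given for these 3, because an exact 0 in FPKM can be a failed estimate; 9.19% of tested genes were listed at 0 in at least 1 clec16a MO library.

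For these low genes the log2 difference is set largely by the control level. Had all clec16a MO values been 0, the differences of krt91, krt17 and krt92 would have been -2.87, -2.69 and -2.55, against -6.72 for cyt1l and -11.08 for krt18a.1. With a pseudocount of 0.1 the 3 differences were -5.50, -5.48 and -4.70, close to -5.54 for cyt1l and -5.60 for cyt1, while krt18a.1 stayed at -1.86 and krt8 stood at -4.24. The order of the low members among the rest is thus a matter of the pseudocount, and krt18a.1 had the smallest difference with either pseudocount. krt5 and krt94 moved as well, to -3.33 and -3.49 with the pseudocount of 0.1. The member median of -2.64 is therefore also tied to the pseudocount of 1.

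No scaling turned the direction of a member. For krt17, krt91, krt92 and krt94, which passed the filter through the control libraries alone, the direction was fixed. Median centring of the libraries moved the median of all tested genes from -0.66 to 0.03 and quantile normalization moved it to -0.04. With median centring the members ranged from -4.38 for cyt1l to -1.16 for krt18a.1, and 38.1% of tested genes were called lower. With quantile normalization they ranged from -4.76 for cyt1l to -1.54 for krt92, and krt18a.1 stood at -2.30, with 39.8% of tested genes called lower. All 10 members were called lower under both scalings.

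**Figure D2:**
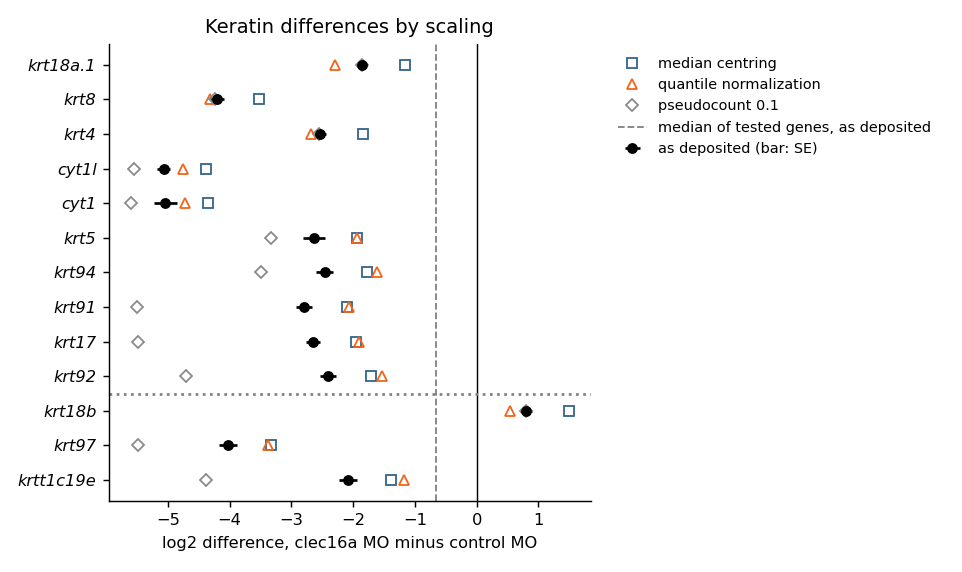
Log2 difference (clec16a MO minus control MO) of the 10 members and of 3 further keratin genes under the dotted line, as deposited (black, with SE) and under 2 other scalings and a smaller pseudocount. All member points lie left of 0 and those of krt18b lie right of 0; the dashed line is the median of all tested genes, -0.66.

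The make-up of the keratin pool, here the 10 members alone, also differed between the groups. krt18b is no member and is left out. It averaged 112 FPKM under the control MO and 196 FPKM under the clec16a MO, there above every member but krt18a.1. The shares below therefore depend on the choice of members, and those of single members with krt18b counted were not computed. krt18a.1 made up 64.4% ± 0.242 (SD, n = 3) of the summed FPKM of the 10 members with the control MO and 87.5% ± 1.02 (SD, n = 3) in the clec16a MO libraries. krt8 went the other way, from 21.3% ± 0.0642 to 5.58% ± 0.970. cyt1l went from 3.11% ± 0.142 to 0.314% ± 0.0249 and cyt1 from 2.79% ± 0.0964 to 0.285% ± 0.125. krt4 differed least in proportion, from 7.24% ± 0.0774 to 6.06% ± 0.464. The other 5 members were each under 0.5% of the pool in every library. For 10 of 10 members the groups did not overlap (exact permutation p = 0.1 each, also after Benjamini-Hochberg adjustment over the 10 shares). That p is the smallest possible. Shares of one library add up to the whole, so a larger krt18a.1 share lowers the summed share of the others. The 10 shares are thus not separate results. How many of all tested genes separate the groups as shares of this pool was not computed. In FPKM, 56.1% of tested genes lay lower without overlap in the clec16a MO libraries and 27.6% higher. With quantile normalization the shares of krt5 and krt94 moved upward instead, by 0.057 and 0.059 percentage points.

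By type, the type II members krt4, krt5 and krt8 were 28.95%, 28.92% and 28.92% of the pool with the control MO and 12.5%, 10.8% and 12.1% in the clec16a MO libraries. The type II share was lower in every clec16a MO library than in any control library (exact permutation p = 0.1, the smallest possible). This direction rested on krt18a.1. Among the 9 members without it, a set chosen after seeing the data, type II genes took 81.3% ± 0.581 with the control MO and 94.3% ± 1.22 in the clec16a MO libraries (SD, n = 3), so the share was higher (exact permutation p = 0.1, the smallest possible). The 9 members summed to 1191 ± 15.3 FPKM under the control MO and to 85.3 ± 4.13 FPKM under the clec16a MO (SD, n = 3).

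**Figure D3:**
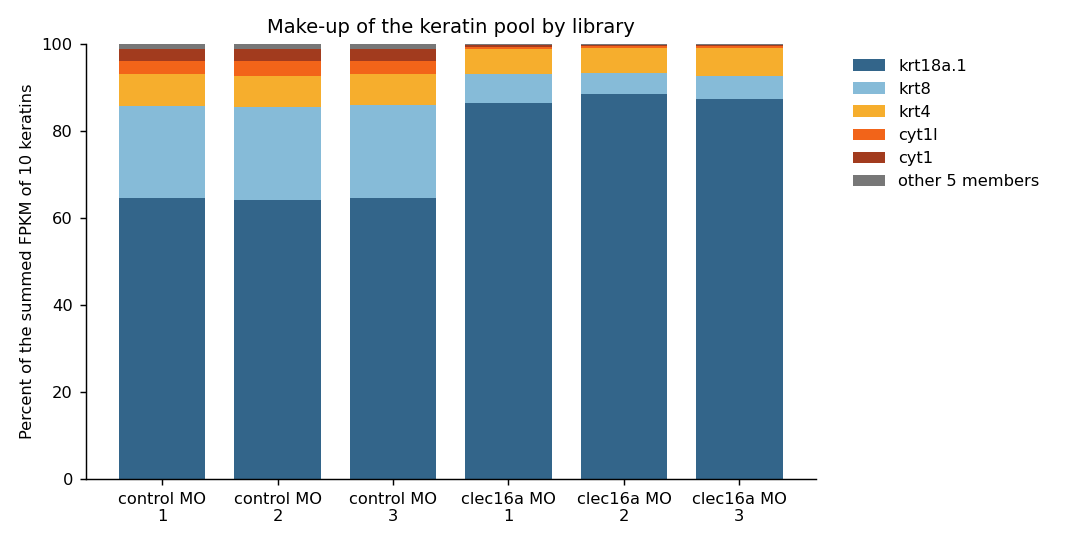
Percent of the summed FPKM of the 10 keratin genes taken by each gene, 1 bar per library. krt18a.1 takes 64.4% on average with the control MO and 87.5% in the clec16a MO libraries, and the krt8 band narrows from 21.3% to 5.58%. krt18b, which is no member, is not counted.

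The order of the levels changed between the groups at few places. In the control libraries it ran krt18a.1, krt8, krt4, cyt1l, cyt1, krt5, krt94, krt91, krt17 and krt92, and the ranges of neighbours in this order overlapped for krt17 and krt92 only. In the clec16a MO libraries krt4 stood at 41.2 ± 3.23 and krt8 at 37.9 ± 5.46 FPKM (SD, n = 3), and their ranges overlapped. Those of cyt1l and cyt1, cyt1 and krt5, krt5 and krt94, krt92 and krt91, and krt91 and krt17 overlapped as well. krt18a.1 lay above all other members in each of the 6 libraries.

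krt18b, another gene of the KRT18 class, was higher in the clec16a MO libraries. It read 109.8, 109.8 and 116 FPKM under the control MO and 192, 216 and 179 FPKM under the clec16a MO (log2 difference 0.80, SE 0.09, limma adjusted p = 0.00015). Its difference was 1.49 with median centring and 0.54 with quantile normalization (limma adjusted p = 6.6e-06 and 0.0017). krt18b took 4.93% ± 0.0908 of the sum of krt18a.1 and krt18b with the control MO and 24.7% ± 1.21 in the clec16a MO libraries (SD, n = 3; exact permutation p = 0.1, the smallest possible). The ratio of krt4 to krt18b, which lie near each other in the genome, went from 2.196, 2.222 and 2.090 to 0.198, 0.191 and 0.248. With krt18b counted beside the members, type II genes took 28.0% ± 0.0290 and 9.19% ± 0.795 of the sum.

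Other keratin genes were taken by name, as those that start with krt and a digit or with krtt. Keratin genes under other names are not counted. Of these other 10 genes in the table, 3 passed the filter. krt18b rose, and krt97 and krtt1c19e fell, both of which passed the filter through the control libraries alone. krt97 fell from 22.1 ± 0.619 to 0.430 ± 0.220 FPKM (log2 difference -4.02, SE 0.15, limma adjusted p = 5.2e-07). krtt1c19e, a type I keratin gene of basal keratinocytes that lies next to krt92, went from 3.70 ± 0.295 FPKM to 0.298, 0.0508 and 0 FPKM (log2 difference -2.08, SE 0.14, limma adjusted p = 6.8e-06). The 7 others were below 1 FPKM in every library. Among these, krt99, krt1-c5, krt98 and krt18a.2 were listed at 0 in each clec16a MO library and krt15 in each control library.

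Intermediate filament genes of other cell types moved in both directions. Of 20 listed, 15 were in the table and 4 passed the filter; 1 rose, 2 fell and 1 did not pass the test. Values in this and the following lists are the mean ± SD of 3 libraries. Beside each list stand all tested genes, of which 54.6% were called lower and 26.7% higher, with a median log2 difference of -0.66. A gene with a mean below 1 FPKM in one group passed the filter through the other group alone, so its direction was fixed; here this was desma. desma, the desmin gene of muscle, fell from 20.5 ± 1.83 to 0.177 ± 0.105 FPKM and vim, the vimentin gene of mesenchymal and endothelial cells, from 15.5 ± 1.15 to 3.92 ± 2.15 FPKM (limma adjusted p = 3.3e-07 and 0.0013). The B-type lamin gene lmnb2 rose from 27.7 ± 1.24 to 117 ± 28.4 FPKM (limma adjusted p = 2.2e-05). lmnb1 averaged 31.5 FPKM in the control and 14.4 ± 10.8 FPKM in the clec16a MO group (limma adjusted p = 0.077). The lmnb1 call turned on single libraries: it passed without clec16a MO replicate 2 (limma adjusted p = 0.0062) and without clec16a MO replicate 3 (limma adjusted p = 0.035).

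Desmosomes anchor keratin filaments at cell contacts, and plakins link the filaments to them. Of 20 listed desmosome and plakin genes, 16 were in the table and 10 passed the filter, of which 0 rose and 10 fell, with a median log2 difference of -1.76; 4 of the 10 passed the filter through the control libraries alone and could only fall. The plectin gene plecb fell from 18.8 ± 0.420 to 1.36 ± 0.125 FPKM (limma adjusted p = 5.1e-07) and the linker gene macf1a from 3.96 ± 0.284 to 0.338 ± 0.0662 FPKM (limma adjusted p = 4.0e-06). jupb, a plakoglobin gene, and pkp2, a plakophilin gene, fell from 3.15 ± 0.308 and 2.14 ± 0.225 FPKM to means of 0.0105 and 0.0175 FPKM (limma adjusted p = 2.3e-06 and 5.7e-06). Median centring left 9 of these genes called lower. Plakins and plakoglobin also serve muscle and endothelium.

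Few genes of the basal epidermis could be tested. Of 23 listed genes of basal cells and hemidesmosomes, which hold basal keratinocytes on the basement membrane, 19 were in the table and 6 passed the filter; 0 rose and 6 fell, with a median of -1.88. Of these, 3 (tp63, bnc2 and dlx3b) passed the filter through the control libraries alone and could only fall. tp63, the transcription factor gene of basal keratinocytes, fell from 4.42 ± 0.490 to a mean of 0.303 FPKM and bnc2, a zinc finger gene, from 4.10 ± 0.144 to 0.321 ± 0.223 FPKM (limma adjusted p = 1.3e-05 for each). The tetraspanin gene cd9b fell from 13.2 ± 0.415 to 2.65 ± 0.577 FPKM and the homeobox gene dlx3b from 2.70 ± 0.321 to 0.358 ± 0.0773 FPKM (limma adjusted p = 1.0e-05 and 2.0e-05). itga3b, itgb4, frem1a and frem2b were listed at 0 in each clec16a MO library. They averaged below 1 FPKM across the libraries and were not tested. How many of all named rows were at 0 in each library of a group was not computed, here and for the lists below.

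Surface epidermis genes were mixed. Of 24 listed, 20 were in the table and 14 passed the filter; 2 rose, 10 fell and 2 did not pass the test, with a median of -1.16. Through the control libraries alone 4 of these passed the filter, tfap2c among them, and through the clec16a MO libraries alone 1, klf17. icn, which encodes an S100-type calcium-binding protein, fell from 100.1 ± 11.9 to 10.9 ± 0.654 FPKM (limma adjusted p = 6.0e-07) and the transcription factor gene tfap2c from 7.39 ± 0.115 to 0.493 ± 0.239 FPKM (limma adjusted p = 4.2e-06). The genes that rose were s100v2, from 19.8 ± 1.26 to 53.7 ± 2.75 FPKM (limma adjusted p = 7.3e-06), and klf17, from 0.446 ± 0.00324 to 231 ± 59.6 FPKM (limma adjusted p = 1.3e-07). klf17 is also expressed in primitive red blood cells. grhl1, elf3 and grhl3 were listed at 0 in each clec16a MO library and ovol1b in each control library. All of these averaged below 1 FPKM across the libraries and were not tested.

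Adhesion and tight junction genes were mixed too. Of 23 listed, 22 were in the table and 11 passed the filter; 3 rose and 8 fell, with a median of -1.15. Of those that fell, 5 passed the filter through the control libraries alone, cldne, cldnh and spint2 among them, and oclnb passed it through the clec16a MO libraries alone. The claudin genes cldne and cldnh fell from 2.86 ± 0.0543 and 3.72 ± 0.154 FPKM to 0.122 ± 0.130 and 0.292 ± 0.255 FPKM (limma adjusted p = 7.6e-06 and 3.2e-05), and the protease inhibitor gene spint2 from 2.73 ± 0.174 to 0.304 ± 0.202 FPKM (limma adjusted p = 3.6e-05). The genes that rose were oclnb, an occludin gene, from 0.389 ± 0.0895 to 8.07 ± 2.67 FPKM (limma adjusted p = 1.6e-05), cldnf from 61.5 to 88.2 FPKM and f11r.1 from 6.06 to 9.84 FPKM by the means (limma adjusted p = 0.0017 and 0.019). Median centring left 5 called lower and quantile normalization 4.

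Ionocytes are skin cells that move ions, and the notochord is another tissue in which keratins are made. Of 17 listed ionocyte genes, 11 were in the table and 4 passed the filter; 0 rose, 3 fell and 1 did not pass the test, with a median of -0.98; atp1a1a.3 and atp1a1a.4 passed the filter through the control libraries alone. The sodium pump gene atp1a1a.3 fell from 19.1 ± 1.33 to 0.0776 ± 0.134 FPKM (limma adjusted p = 3.7e-07) and atp1a1a.4 from 2.46 ± 0.125 to 0.305 ± 0.416 FPKM (limma adjusted p = 0.00051); with quantile normalization this gene no longer passed. The proton pump gene atp6v1aa fell from 43.2 ± 1.70 to 30.4 ± 4.73 FPKM (limma adjusted p = 0.0071). With median centring its difference was 0.19 and was not called (limma adjusted p = 0.20). ceacam1 read 4.68 ± 0.186 and 4.18 ± 0.945 FPKM (limma adjusted p = 0.41) and was called higher with median centring and with quantile normalization.

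Of 20 listed notochord genes, 17 were in the table and 7 passed the filter; 0 rose and 7 fell, with a median of -1.65. Of these, 4 (cavin1b, col9a2, col9a1b and col9a3) passed the filter through the control libraries alone and could only fall. The caveola gene cavin1b, which endothelium also expresses, fell from 19.5 ± 1.42 to 0.416 ± 0.0713 FPKM (limma adjusted p = 3.1e-07). The type IX collagen genes col9a2, col9a1b and col9a3 fell from 4.47 ± 0.227, 4.21 ± 0.256 and 2.63 ± 0.503 FPKM to 0.0574 ± 0.0251, 0.219 ± 0.379 and 0.159 ± 0.199 FPKM (limma adjusted p = 1.1e-06, 5.7e-05 and 6.4e-05). foxa2, noto, shhb, shha and col9a1a were listed at 0 in each clec16a MO library. They averaged below 1 FPKM across the libraries and were not tested.

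**Figure D4:**
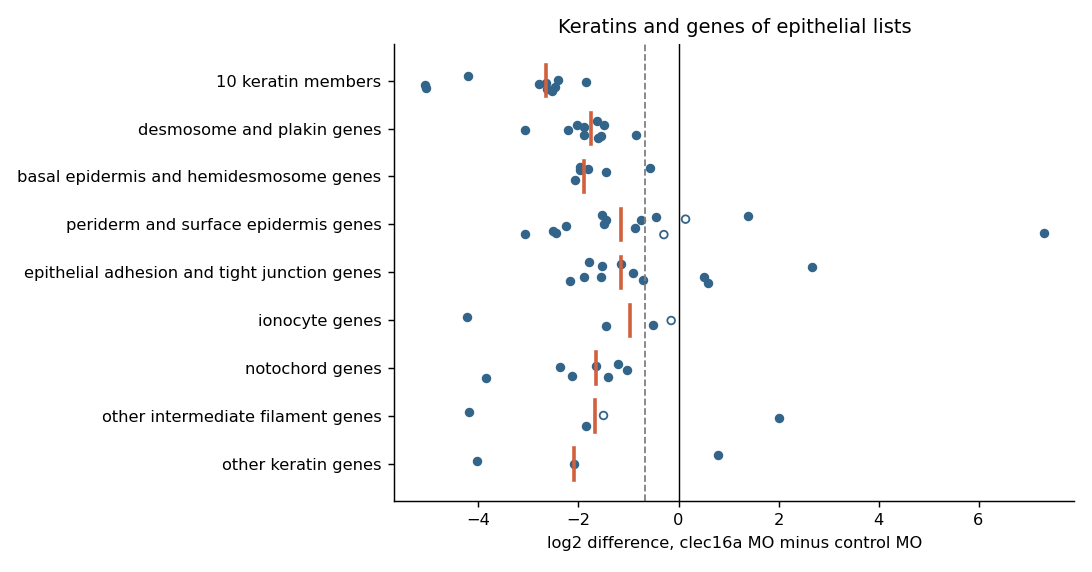
Log2 difference (clec16a MO minus control MO) of each tested gene in the keratin set and in 8 related lists; filled points passed the test, open points did not, the orange bar is the list's median and the dashed line the median of all tested genes, -0.66. The keratin members lie between -5.07 and -1.86, and klf17 stands apart at 7.30.

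Markers of several cell types moved with the groups, and their part in the keratin differences was not tested. All 14 listed epidermis markers other than keratins were in the table, and 9 passed the filter, of which 8 fell, 3 of them genes that passed the filter through the control libraries alone. The 14 summed to between 216 and 242 FPKM under the control MO and between 53.3 and 74.8 FPKM under the clec16a MO, with grhl3 at 0 in each clec16a MO library. Log2 differences of the tested markers ran from -3.08 for icn to 0.14 for anxa1a, which was not called. The make-up of the marker sum therefore differed between the groups. The sum of the 10 keratins was 13.7, 14.2 and 15.7 times this marker sum with the control MO and 9.96, 13.3 and 9.02 times in the clec16a MO libraries, so that the groups came close without overlapping. For krt18a.1 alone the ratio to the marker sum overlapped between the groups, and for the other 9 members it was lower without overlap (exact permutation p = 0.1 each, the smallest possible). Of these 9, krt17, krt91, krt92 and krt94 had passed the filter through the control libraries alone. No result is drawn from their ratios, here or below. The result depended on the marker. Relative to icn, the marker with the highest control level, 6 members were lower and 2 higher without overlap. The 6 include krt17, krt91 and krt92, and the 2 were krt18a.1 and krt4. krt4 was 2.25, 2.28 and 2.80 times icn with the control MO and 3.30, 4.03 and 4.02 times in the clec16a MO libraries. Relative to tp63, 2 members (krt91 and krt17, each at 0 in 2 clec16a MO libraries) were lower without overlap. The 2 higher without overlap were krt18a.1 and krt4. krt5 overlapped, at 2.66, 3.08 and 2.90 times and then 1.70, 17.1 and 4.30 times. Under the clec16a MO this denominator was itself near the bottom of the scale: tp63 was 0.432 FPKM for replicate 1, 0.0725 for replicate 2 and 0.404 for replicate 3. The krt5 value of 17.1 belongs to replicate 2, where tp63 was lowest. Ratios to tp63 are therefore uncertain, and no dependence on the marker is drawn from them. The ratios to icn and to tp63 were chosen after seeing the data. How many of all tested genes separate the groups in ratios to these markers was not computed. In FPKM, 56.1% of tested genes lay lower without overlap in the clec16a MO libraries and 27.6% higher.

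Markers of endothelium, where the transgene is active, were among those that fell: of 13 in the table and tested, 0 rose, 12 fell and 1 did not pass, and the sums were 4178 to 4252 and 1087 to 1399 FPKM, with erg at 0 in each clec16a MO library. Skeletal muscle markers fell in 9 of 9 cases, from sums of 2733 to 2766 FPKM to 18.6 to 30.3 FPKM. Of 12 erythroid markers 12 rose, from 1207 to 1351 FPKM to 14937 to 25828 FPKM. Of the 18 rows of 11 myeloid markers 14 were tested and 13 rose, from 59.5 to 63.1 FPKM to 2954 to 4278 FPKM, with 9 rows, mpx and mpeg1.1 among them, at 0 in each control library. Of these tested markers, 3 of endothelium and 3 of skeletal muscle passed the filter through the control libraries alone, and 1 erythroid and 9 myeloid rows through the clec16a MO libraries alone. Of 9 markers of pharyngeal arch mesenchyme 4 were tested, 1 rose and 2 fell, both of which passed the filter through the control libraries alone. The 9 had sums of 18.7 to 20.6 and 12.9 to 18.6 FPKM. sox10 and foxd3 were at 0 in each clec16a MO library and prrx1b in each control library. clec16a itself read 14.4, 14.1 and 14.3 FPKM under the control MO and 5.68, 5.57 and 4.24 FPKM under the clec16a MO. Its log2 difference was -1.32, and 33.5% of tested genes had one as low or lower. fli1a averaged 1049 FPKM under the control MO and 107 FPKM under the clec16a MO. Rows above 0 numbered 19250 to 19317 with the control MO and 15153 to 15871 in the clec16a MO libraries.

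The genes whose pattern over the 6 libraries was most like the mean of the 10 members were csrnp2, dennd5a, cttnbp2nlb, PRRC2B and bbx. Likeness was the root mean square difference between a gene and the member mean in log2(FPKM + 1), each relative to its control mean. It was 0.0233, 0.0243, 0.0475, 0.0484 and 0.0492 for these genes, against a median of 1.81 over all tested genes. All of these genes had a mean below 1 FPKM under the clec16a MO, passed the filter through the control libraries alone and could only fall. csrnp2, dennd5a and PRRC2B were each listed at 0 in 2 clec16a MO libraries. Their differences were thus set largely by their control means of 7.96, 8.23 and 8.43 FPKM. cttnbp2nlb, which had no 0, went from 14.5 ± 0.282 to 0.779 ± 0.0752 FPKM (SD, n = 3). The likeness rests on a difference between 2 groups shared by many genes. The member mean averages log2 differences that ran from -5.07 to -1.86, so likeness to this mean is not likeness to any single keratin.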

How the data were processed

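RNA of GFP+ cells was sequenced after oligo(dT)-primed, template-switching cDNA amplification, per the labels' protocols. The authors deposited FPKM values, 1 column per library. The submitters' processing notes name cutadapt 1.9, HISAT2 2.2.1 and StringTie 2.1.6, also DESeq2 and edgeR without a version, and no settings. The genome build is not given in the sources used here. FPKM values are relative and carry no totals, so the depth is unknown. Low values showed no steps that give whole reads: at most 24 rows shared the commonest ratio of 2 control libraries and at most 10 that of 2 clec16a MO libraries. No row above 0 was equal between libraries of a group.

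Of 21853 rows, 16 named by a calendar date were left out. Values were tested as log2(FPKM + 1) for rows with a mean of at least 1 FPKM, with limma 3.58.1 (R 4.3.3), mean-variance trend, group as the only term, two-sided, threshold 0.05 after Benjamini-Hochberg adjustment over 12153 rows; the function was tested on simulated data. Shares and ratios were compared by exact permutation over libraries (NumPy 2.4.6, Python 3.11.15). Figures used matplotlib 3.10.9. Groups come from the genotype label, and replicate numbers only name libraries.

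The members and lists were chosen with earlier results of these data known. Named were the members, per list the 4 genes (or fewer) of smallest adjusted p, genes of small counts or listed at 0, and the 5 most alike; the latter and krt18b, singled out, were described after their values were seen. Keratin types are textbook classes. Alternatives were another pseudocount, no filter, 2 scalings, abundant genes left out, summed rows of a name, no trend, array weights, a replicate block and each library left out.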

Additional observations from a re-analysis of the deposited data

How the results depend on the processing

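The calls of the 10 keratin members kept their direction and stayed past the threshold in all 150 refits (15 alternatives for each member), with limma adjusted p-values of at most 0.00018. Of these members, krt17, krt91, krt92 and krt94 passed the filter of the main fit through the control libraries alone and could only fall. The kept direction is therefore a result for the other 6 members only. Leaving out each library in turn gave 10 members called lower each time. Over all genes, 3239 were called higher and 6638 lower, and without a filter on low values 10430 were called lower. Without the filter, 5 other keratin genes, 7 other intermediate filament genes, 17 basal epidermis and hemidesmosome genes, 6 ionocyte genes and 16 notochord genes were called lower, since more genes were tested. Of the adhesion and tight junction genes, 5 were called lower with median centring and 4 with quantile normalization; of the ionocyte genes, 1 was called higher with each. The difference of atp6v1aa became 0.19 with median centring and was not called (limma adjusted p = 0.20). That of ceacam1 became 0.55 with median centring and 0.61 with quantile normalization. The cause was not tested. The pool share of krt5 rose by 0.057 and that of krt94 by 0.059 percentage points with quantile normalization, which changes ratios within a library. The difference in keratin share of summed FPKM, -0.542 percentage points, lay between -0.550 and -0.532 with each library left out; without krt18a.1, a setting chosen after seeing the data, it was -0.223. The type II share differed by -17.1 percentage points, by -18.8 with krt18b added and, in the opposite direction, by 12.9 with krt18a.1 left out, both chosen after seeing the data. Replicate numbers did not pair the libraries: deviations of same-numbered libraries correlated at 0.044, -0.018 and 0.0054, and not every library correlated best with its own number. With the replicate block, 3239 genes were called higher, 6604 lower and 10 members lower. lmnb1 passed the threshold with the replicate block and with array weights (limma adjusted p = 0.028 and 0.026).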
